A study of Mus musculus with 2 samples.

Results

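The cell cycle genes described here are 40 of the 55357 genes in the count matrices, named in a list by phase and matched by gene symbol, each to 1 row. The S-phase list has 18 genes (Mcm2, Mcm3, Mcm4, Mcm5, Mcm6, Mcm7, Pcna, Gins2, Rrm1, Rrm2, Tyms, Slbp, Uhrf1, Cdc6, Cdc45, Cdt1, Ccne1 and Ccne2). The G2/M list has 22 genes (Mki67, Top2a, Cenpf, Cenpe, Cenpa, Ube2c, Prc1, Nusap1, Hmmr, Kif11, Kif23, Ccna2, Ccnb1, Ccnb2, Cdk1, Birc5, Aurka, Aurkb, Bub1, Plk1, Tpx2 and Cdc20). They were measured by droplet-based single-cell RNA sequencing (10x Genomics) of tumours of 4T1, a mouse line of triple-negative breast cancer, in BALB/c mice. The AptCD4-LNT mice were given AptCD4-LNT in 3 doses of 5000000, 4000000 and 3000000 cells, 3 days apart; the labels do not say what cells these are, and the Untreated mice were given PBS as the control. The tumours were collected at 9 days, and each group's library was made from 3 of them together. There is therefore no replicate: every difference below is between 2 libraries, none was tested against variation between mice, and the 95% intervals cover counting error only.

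A dividing cell makes the products of these genes in turn. Entry into S phase needs the licensing factors and the MCM helicase that open the DNA, cyclin E, and the enzymes that supply nucleotides and copy the strands, and many of their genes are known targets of E2F transcription factors. The genes of G2 and mitosis encode the cyclin B and CDK1 kinase, the spindle and kinetochore proteins and the ubiquitin ligase that ends mitosis, and many of them are known to carry CCAAT boxes and a CHR element that holds them down until late in the cycle. 4T1 tumours are known for rapid growth, and the tumour also holds immune and stromal cells that divide at their own rates.

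The promoters are shown because their letters are a property of the lists that no count in this study defined. RefSeq windows on GRCm38.p6, from 250 bases before to 50 after the transcription start, were found for 34 of the 40 genes, 15 of the S-phase and 19 of the G2/M list (not Mcm4, Gins2, Ccne2, Ccna2, Aurkb or Tpx2). E2F-type letters (TTGGCGC or TTCCCGC, on either strand, including the forms with a further T in front) were present in 8 of 15 S-phase genes (53.3%) and in 3 of 19 G2/M genes (15.8%), against 7.79% of all 27025 genes of the table. CHR letters (TTTGAA or TTCGAA, on either strand) were present in 3 of 15 S-phase genes (20%) and in 15 of 19 G2/M genes (78.9%), against 21.7% of all genes. CCAAT, on either strand, was in 11 of 15 S-phase genes (73.3%), 17 of 19 G2/M genes (89.5%) and 41.1% of all genes. CHR and CCAAT letters stood together in the same gene in 3 of 15, 15 of 19 and 8.61% respectively. These motifs overlap in places, and a match is only a match of letters.

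The 6 windows below each give the 150 bases before the start, 5′ to 3′ on the gene's strand, with matched letters in capitals. ATTGG is CCAAT and TTCAAA is TTTGAA read on the other strand. Mcm6 stands for the S-phase genes with E2F-type letters, Slbp for an S-phase gene with none of them, Cdk1 and Cdc20 for G2/M genes with CHR and CCAAT letters, and Top2a and Ube2c for the G2/M genes with most CCAAT matches over the whole window (6 each).
Mcm6, chr1:128359706-128359855, minus strand: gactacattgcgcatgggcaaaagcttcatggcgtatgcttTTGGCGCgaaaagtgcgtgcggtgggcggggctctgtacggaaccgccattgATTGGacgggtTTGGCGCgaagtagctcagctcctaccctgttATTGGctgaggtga
Slbp, chr5:33652575-33652724, minus strand: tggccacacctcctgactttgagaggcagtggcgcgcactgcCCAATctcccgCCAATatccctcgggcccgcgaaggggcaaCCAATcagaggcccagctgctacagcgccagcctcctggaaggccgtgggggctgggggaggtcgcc
Cdk1, chr10:69352913-69353062, minus strand: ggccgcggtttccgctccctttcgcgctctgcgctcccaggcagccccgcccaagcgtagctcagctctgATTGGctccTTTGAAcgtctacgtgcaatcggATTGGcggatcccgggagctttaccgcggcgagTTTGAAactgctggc
Cdc20, chr4:118437344-118437493, minus strand: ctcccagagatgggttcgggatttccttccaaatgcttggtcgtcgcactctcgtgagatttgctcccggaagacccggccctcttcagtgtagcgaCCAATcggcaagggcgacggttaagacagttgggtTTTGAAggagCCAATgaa
Top2a, chr11:99024190-99024339, minus strand: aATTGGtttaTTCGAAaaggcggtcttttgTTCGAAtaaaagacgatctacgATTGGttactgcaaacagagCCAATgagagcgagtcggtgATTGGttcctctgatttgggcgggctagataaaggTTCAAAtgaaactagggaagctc
Ube2c, chr2:164769779-164769928, plus strand: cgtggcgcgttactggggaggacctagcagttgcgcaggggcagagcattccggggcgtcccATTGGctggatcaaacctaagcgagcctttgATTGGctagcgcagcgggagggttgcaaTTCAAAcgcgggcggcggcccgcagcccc
In Mcm6 the E2F-type letters began 109 and 46 bases before the start, and Slbp held 3 CCAAT matches and no E2F-type or CHR letters. In Cdc20 the CHR letters began 18 bases before the start, in Ube2c 29 and in Top2a 23. Cdk1 had a further E2F-type match 178 bases before the start, outside the stretch printed. Birc5 and Nusap1, of the G2/M list, and Ccne1 and Tyms, of the S-phase list, held none of these letters in the window.

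The AptCD4-LNT library held 8931 barcodes with a median of 8612 UMIs (unique molecules counted) and the Untreated library 20040 with a median of 4640.5. They shared 42 barcode sequences. Cells were clustered without these 40 genes and without the further cell cycle lists used below, so that no gene of these lists placed a cell in its cluster. Genes outside the lists that go with division, such as Pclaf and histone genes, were not left out. Clusters were named by markers of each class. Classes with at least 50 cells in both libraries were compared. Epithelial-like cells (3718 in AptCD4-LNT and 9294 in Untreated) expressed Krt8, Krt18 and Epcam and hold the tumour cells. The others were macrophage-like (933 and 2928), monocyte-like (510 and 809), neutrophil-like (2130 and 2975), T-like (64 and 466), fibroblast-like (801 and 525), endothelial-like (55 and 153), pericyte-like (51 and 96) and dendritic-like (73 and 71). Levels are UMIs of a gene or list per 1000000 UMIs of the class (CPM), not divided by transcript length, so a list's sum leans toward its genes with most UMIs.

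The cell cycle RNA of the tumour lay mostly in epithelial-like cells, but among the classes compared T-like cells had the highest S-phase level. Epithelial-like cells held 83.9% of the S-phase UMIs and 85.2% of the G2/M UMIs of the AptCD4-LNT library. In the Untreated library they held 84.2% and 88.4%. Of the UMIs of all genes they held 73.93% in AptCD4-LNT and 75.03% in Untreated. Their shares of the lists were thus only moderately above their share of all UMIs. Their S-phase list stood at 903 CPM (95% interval 896 to 910) in AptCD4-LNT and 906 (900 to 913) in Untreated, and their G2/M list at 2008 (1997 to 2018) and 2257 (2247 to 2268). T-like cells stood above them on both lists in both libraries, with 1504 CPM (1362 to 1657) and 1589 (1515 to 1665) for the S-phase list and 2276 (2101 to 2463) and 2749 (2652 to 2849) for the G2/M list. In AptCD4-LNT this rests on few cells, since 10 of 64 T-like cells held 76.6% of the S-phase and 10 held 87.3% of the G2/M UMIs. Without the 10 cells with most UMIs of each list, T-like cells of AptCD4-LNT stood at 567 and 499 CPM. Epithelial-like cells then stood at 886 and 1919. In Untreated the same values were 1370 and 2164 for T-like and 894 and 2194 for epithelial-like cells. In AptCD4-LNT the G2/M interval of T-like cells overlaps that of pericyte-like cells (2010 to 2289). Clusters left without a name, 134 and 512 cells outside the comparison, stood at 3364 and 1833 CPM for the G2/M list.

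The 2 lists did not order the other classes in the same way, and in AptCD4-LNT the G2/M interval of pericyte-like cells overlaps that of epithelial-like cells. For the S-phase list endothelial-like cells stood at 645 and 736 CPM, pericyte-like cells at 700 and 560, macrophage-like cells at 635 and 454, dendritic-like cells at 501 and 611, monocyte-like cells at 421 and 367 and fibroblast-like cells at 401 and 346, in AptCD4-LNT and Untreated. For the G2/M list the same classes stood at 1452 and 2015, 2146 and 1616, 1453 and 753, 1290 and 431, 500 and 238, and 687 and 513. Neutrophil-like cells, a class whose mature cells do not divide, were lowest on both lists, at 227 (211 to 244) and 243 (226 to 262) CPM for the S-phase list and 149 (136 to 163) and 181 (166 to 197) for the G2/M list. In AptCD4-LNT the S-phase intervals of endothelial-like, pericyte-like and macrophage-like cells overlap, as do those of monocyte-like cells with fibroblast-like and with dendritic-like cells, so their order is not resolved there.

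**Figure D1:**
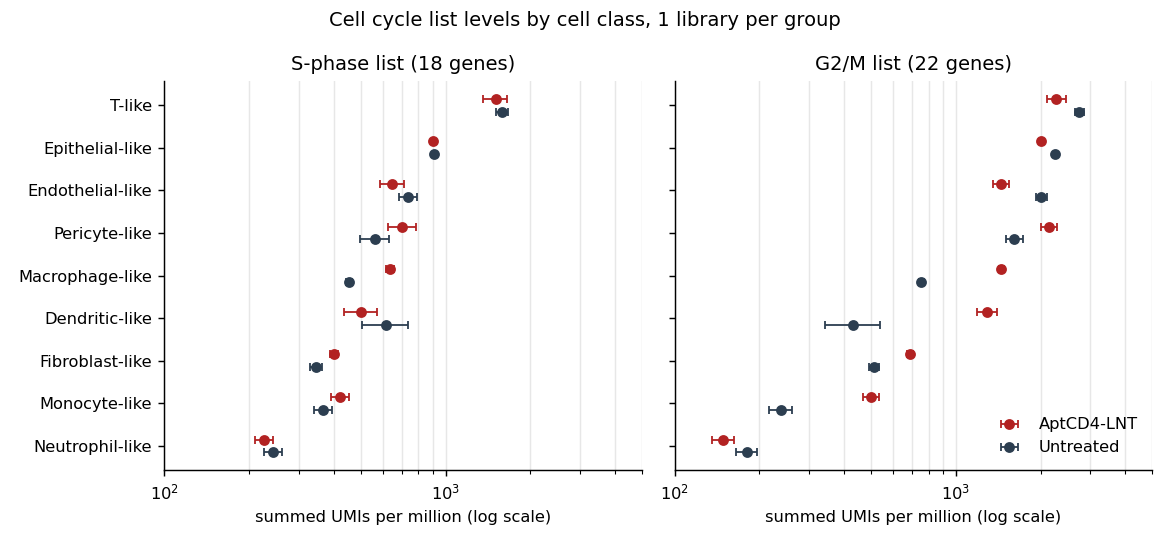
Summed level of the 18 S-phase genes (left) and 22 G2/M genes (right) in CPM on a log axis, by cell class, 1 point per library with its 95% counting interval. T-like cells are highest for the S-phase list (1504 and 1589 CPM) and neutrophil-like cells lowest (227 and 243 CPM), with a wider range for the G2/M list.

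The 2 lists also differ in how low they stand in neutrophil-like cells. Neutrophil-like cells had 25.1% (AptCD4-LNT) and 26.8% (Untreated) of the epithelial-like S-phase level, but 7.4% and 8.0% of the G2/M level, beside 5.5% and 5.7% of the epithelial marker level in the same cells. The gap lay largely in Slbp, the protein that binds the stem-loop of histone mRNAs. Slbp stood at 117 and 139 CPM in neutrophil-like cells and at 128 and 152 CPM in epithelial-like cells, that is 91.7% and 91.9% of the epithelial-like level, and made up 51.6% and 57.3% of the neutrophil-like S-phase UMIs. Without Slbp the S-phase list of neutrophil-like cells was 14.2% and 13.8% of the epithelial-like level. Pcna, the sliding clamp of DNA polymerases, stood next, at 35.6 and 30.8 CPM (30.6% and 26.3% of the epithelial-like level), whereas Top2a was at 5.3% and 6.8% of it. In monocyte-like cells Slbp (97.0 and 99.5 CPM) and Pcna (112 and 79.9 CPM) led the S-phase list in the same way. In T-like cells Slbp reached 201 and 331 CPM and Pcna 264 and 194 CPM.

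Within the G2/M list Kif23, a central-spindle kinesin, stood out in neutrophil-like cells of 1 library. It had 87 UMIs (26.9 CPM) in AptCD4-LNT and 23 UMIs (7.86 CPM) in Untreated, a log2 ratio of 1.78 (1.10 to 2.51), while 7 of the 17 G2/M genes with at least 20 UMIs there were at least 1.5-fold lower in AptCD4-LNT and only Kif23 and Mki67 (20 and 12 UMIs) were at least 1.5-fold higher. Of all genes tested in that class 27.4% were higher and 7.75% lower by 1.5-fold. Of the 14 S-phase genes with enough UMIs there, Mcm7 was higher and Cdc45 lower, and the intervals of both span 0. After thinning every cell to 1000 UMIs, 2.63% of AptCD4-LNT and 0.513% of Untreated neutrophil-like cells had a Kif23 UMI, and 3.55% and 3.23% of epithelial-like cells did.

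Cells differ in depth between the libraries, so shares of cells were computed at an equal depth of 1000 randomly kept UMIs a cell, which left out 23 and 110 epithelial-like cells. With 2 or more UMIs of a list counted as carrying it, 17.6% (16.4 to 18.9%, Clopper-Pearson) of AptCD4-LNT and 17.5% (16.7 to 18.3%) of Untreated epithelial-like cells carried the S-phase list, and 20.6% (19.3 to 22%) and 22.6% (21.8 to 23.5%) the G2/M list. Without thinning the shares were 91.9% and 72.0% for the S-phase list and 68.5% and 49.7% for the G2/M list, beside medians of 17521 and 7286 UMIs in these cells. Neutrophil-like cells gave 3.55% and 2.77% for the S-phase list and 1.49% and 1.95% for the G2/M list at the same depth. Of them 384 and 2001 were left out. They were planned as the level of free RNA and counting background. Their S-phase share is not read as such, because Slbp made up 51.6% and 57.3% of their S-phase UMIs, near its epithelial-like level. The G2/M UMIs were the more concentrated ones. The 10% of epithelial-like cells with most of them held 68.8% and 65.4% of them, against 47.7% and 48.0% of the S-phase UMIs.

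The labels of the lists were checked in single cells. In epithelial-like cells thinned to 5000 UMIs (3546 and 6665 cells), the mean Pearson correlation between 2 G2/M genes was 0.476 in AptCD4-LNT and 0.483 in Untreated, between 2 S-phase genes 0.180 in both, and between the lists 0.088 and 0.084. These are descriptions across cells of 1 library each, which share its depth and free RNA. At 2000 UMIs the means were 0.294 and 0.301, 0.087 and 0.086, and 0.041 and 0.046 in the same order. Sparse counts thus lower these values, and their part in the weaker S-phase correlation was not tested. At 5000 UMIs all 22 G2/M genes correlated more with their own list in both libraries, and so did 16 of 18 S-phase genes in AptCD4-LNT and 17 of 18 in Untreated. The exceptions were Rrm1 in both libraries (mean r of 0.162 with the S-phase and 0.182 with the G2/M list in AptCD4-LNT, 0.148 and 0.194 in Untreated) and Tyms in AptCD4-LNT (0.186 and 0.194). At 2000 UMIs Tyms was instead an exception in Untreated (0.085 and 0.097) and not in AptCD4-LNT (0.097 and 0.072), so its place is not settled. Rrm1, the large subunit of ribonucleotide reductase, and Tyms, thymidylate synthase, both supply nucleotides. Rrm2, the small subunit, had the highest mean correlation with the S-phase list (0.269 and 0.271) and also a high one with the G2/M list (0.226 and 0.247). From the other side Top2a, the topoisomerase that untangles sister chromatids, was the G2/M gene closest to the S-phase list (0.218 and 0.215). Cyclin E2, Ccne2, had the lowest mean correlation with the G2/M list in both libraries (0.030 and 0.018), close to Ccne1 (0.030 and 0.032) and the licensing factor Cdt1 (0.031 and 0.023). At 2000 UMIs the lowest was instead Mcm6 in AptCD4-LNT (0.007) and Cdc6 in Untreated (0.010), so the lowest place is not settled. Ccne2 has few UMIs and was also low with its own list (0.119 and 0.112 at 5000 UMIs).

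**Figure D2:**
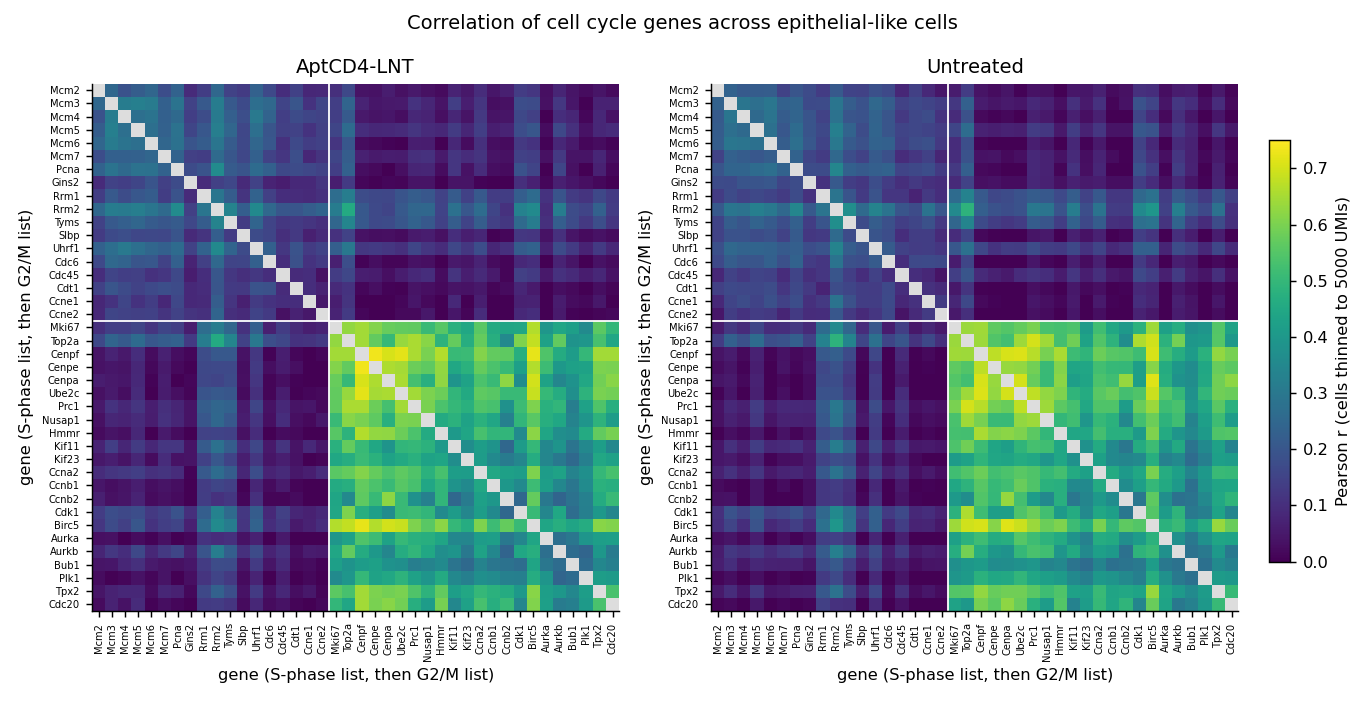
Pearson correlation between every pair of the 40 genes across epithelial-like cells thinned to 5000 UMIs, AptCD4-LNT left and Untreated right, with white lines between the S-phase and G2/M lists and values below 0 drawn as 0. The G2/M block is the brightest (mean r of 0.476 and 0.483), the S-phase block is weaker (0.180 in both), and Rrm1, Rrm2, Tyms and Top2a reach across. The means of both blocks depend on depth and were lower at 2000 UMIs.

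Cell by cell, S-phase UMIs were not simply higher where G2/M UMIs were higher. In cells with no G2/M UMI of 5000 (38% of the cells in AptCD4-LNT, 33.5% in Untreated), the mean was 2.17 and 2.09 S-phase UMIs. It was 9.45 and 8.84 in cells with 5 to 9 G2/M UMIs and 10.7 and 9.80 in those with 10 to 19. It was lower again, 5.64 and 5.95, in cells with 20 or more G2/M UMIs, which made up 13.1% (AptCD4-LNT) and 17.5% (Untreated). Thinning to 5000 UMIs left out 172 AptCD4-LNT and 2629 Untreated cells, so these shares are not compared between the libraries. The same course appeared in both libraries.

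**Figure D3:**
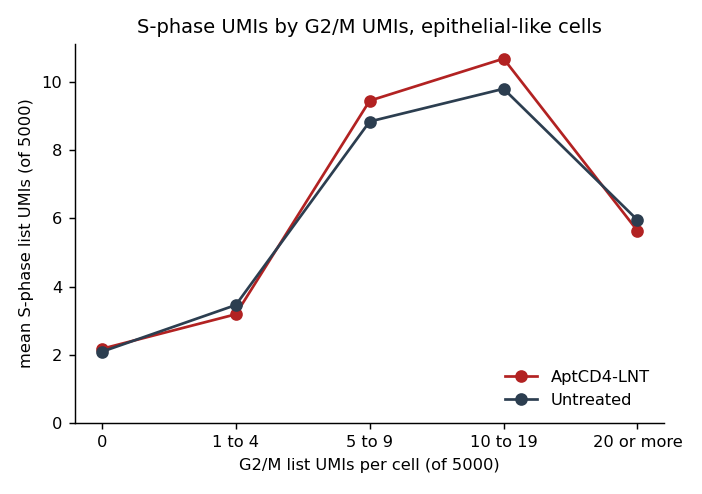
Mean number of S-phase UMIs per epithelial-like cell (vertical, of 5000 UMIs) by the number of G2/M UMIs in the cell (horizontal, 5 bins), 1 line per library. Both lines peak at 10 to 19 G2/M UMIs (10.7 and 9.80) and are lower at 20 or more (5.64 and 5.95).

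In epithelial-like cells the lists differed little between AptCD4-LNT and Untreated, and less for S phase than for G2/M. The log2 ratio, AptCD4-LNT over Untreated, was -0.01 (-0.02 to 0.01) for the S-phase list and -0.17 (-0.18 to -0.16) for the G2/M list, so the balance of S-phase over G2/M UMIs was 0.16 higher on the log2 scale in AptCD4-LNT (0.15 to 0.18). No member of either list differed by 1.5-fold, 0 of 18 and 0 of 22, where 9.91% of the 17273 genes with at least 20 UMIs were higher and 6.67% lower by that much. The median log2 ratio was 0.03 for the S-phase genes and -0.11 for the G2/M genes, beside 0.06 over all genes. The G2/M direction was the same under each alternative run (-0.15 to -0.27).

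The small S-phase value hides members on either side of 0, since 7 genes had intervals above 0, 5 below and 6 across it. Among the helicase subunits, Mcm6 stood at 80.7 CPM in AptCD4-LNT and 66.7 in Untreated (log2 ratio 0.28), Mcm3 at 59.7 and 52.2 (0.19) and Mcm2 at 41.9 and 37.9 (0.14). Mcm7 (82.5 and 79.5), Mcm5 (42.4 and 40.7) and Mcm4 (50.1 and 49.7) differed by 0.05, 0.06 and 0.01. All 6 MCM subunits were thus level or slightly higher in AptCD4-LNT. Cdc45 (25.8 and 29.7 CPM, -0.20) and Gins2 (31.8 and 37.0, -0.22), which also belong to the active helicase, were slightly lower. Gins1, a further helicase gene from outside the list, was not lower (5.35 and 4.86 CPM, 0.14, -0.07 to 0.34).

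Other pairs of the S-phase list also went different ways. Of ribonucleotide reductase, Rrm1 was at 39.6 and 35.6 CPM (0.15) and Rrm2 at 55.5 and 66.9 (-0.27). Of the E cyclins, which start S phase with their kinase, Ccne2 was at 6.06 and 4.17 CPM (0.54, interval 0.33 to 0.75) and Ccne1 at 4.23 and 5.76 (-0.45, -0.66 to -0.24). Both rest on few UMIs, 426 and 351 for Ccne2 and 297 and 485 for Ccne1. Slbp was at 128 and 152 CPM (-0.25). Uhrf1, which maintains DNA methylation at the fork, was at 48.5 and 42.7 CPM (0.19). Pcna (116 and 117 CPM), Tyms (44.6 and 44.9), the licensing factors Cdt1 (35.7 and 34.0) and Cdc6 (9.82 and 10.2) had intervals across 0.

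Of the G2/M genes 13 had intervals below 0, 3 above and 6 across it. The chromosomal passenger genes were lower in AptCD4-LNT: Birc5 (survivin) stood at 180 and 230 CPM (-0.35) and its kinase Aurkb at 31.0 and 40.7 (-0.39). Ube2c, the ubiquitin-conjugating enzyme of the anaphase-promoting complex, had the largest difference of the list, 186 and 256 CPM (-0.46, -0.49 to -0.43), while Cdc20, which activates that complex, was at 61.0 and 64.3 (-0.07). The spindle-pole kinase Aurka was at 22.3 and 30.1 (-0.43) and its activator Tpx2 at 61.9 and 71.9 (-0.22).

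The mitotic kinase and its cyclins did not differ alike. Cdk1 was at 118 and 153 CPM (-0.38, -0.42 to -0.34), but Ccnb1 at 40.6 and 40.2 (0.01), Ccnb2 at 75.1 and 74.4 (0.01) and Ccna2 at 62.3 and 62.4 (0.00), with intervals across 0. The kinetochore genes differed as well, with the centromeric histone Cenpa at 187 and 222 CPM (-0.24), the motor Cenpe at 88.0 and 86.2 (0.03) and Cenpf at 153 and 144 (0.09). Mki67, the gene of the Ki-67 antigen, went against the list, at 107 and 83.2 CPM (0.36, 0.32 to 0.41), as did Kif23 at 49.7 and 42.2 (0.24). Top2a was at 280 and 325 CPM (-0.22), and its direction was thus opposite to that of Mki67.

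Among the remaining G2/M genes the spindle gene Nusap1 was lower in AptCD4-LNT (50 and 60 CPM, -0.26). Hmmr (53.6 and 59.0, -0.14), Prc1 (111 and 117, -0.07) and Kif11 (42.8 and 44.8, -0.07) differed less. Bub1, of the spindle checkpoint, was at 21.8 and 24.0 CPM (-0.14) and the kinase Plk1 at 24.5 and 25.4 (-0.05). The intervals of Kif11 and Plk1 spanned 0.

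**Figure D4:**
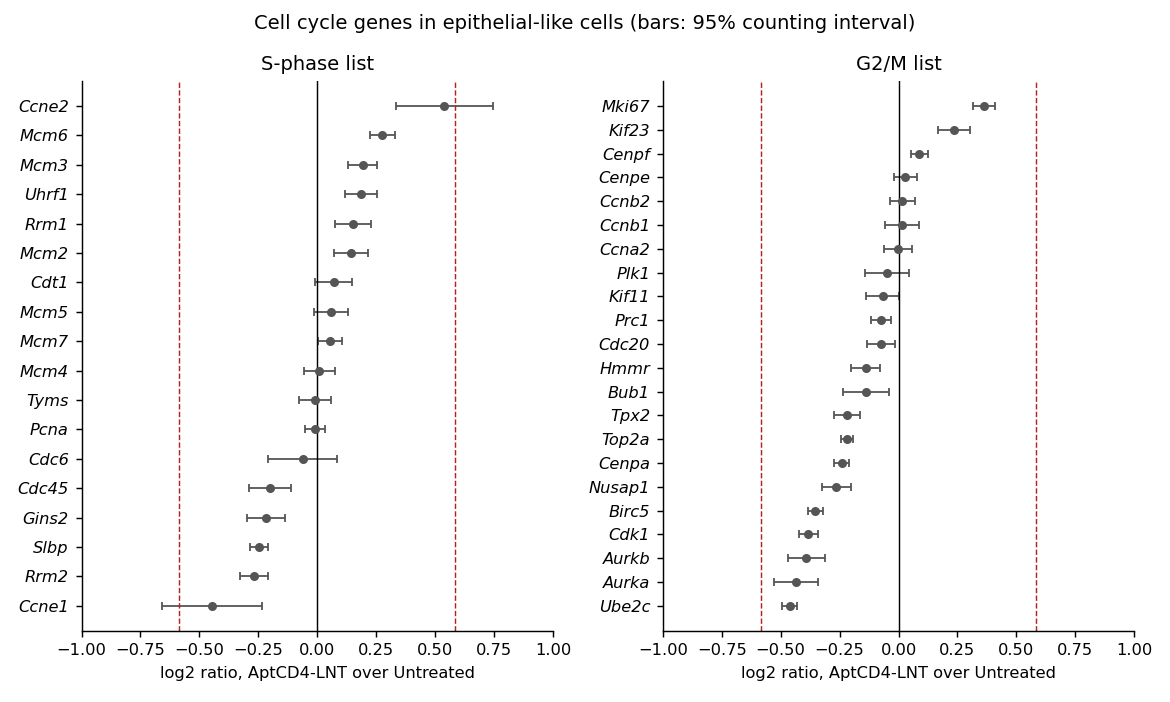
Log2 ratio, AptCD4-LNT over Untreated, of each S-phase gene (left) and G2/M gene (right) in epithelial-like cells, with 95% counting intervals, and dashed lines at 1.5-fold. No point passes the dashed lines, with Ccne2 (0.54) and Ube2c (-0.46) nearest to them.

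Most genes of further cell cycle lists also stayed within 1.5-fold in epithelial-like cells. None of the 8 early G1 cyclins and kinases, 12 RB and E2F genes, 22 replication-fork genes, 33 mitosis genes or 6 mitotic-exit genes differed by 1.5-fold, and their medians lay between -0.03 and 0.08. Cyclin D1, Ccnd1, was at 1136 and 1271 CPM (-0.16), Cdk4 at 343 and 353 (-0.04) and Cdk6 at 114 and 98.7 (0.21), and the phosphatase gene Cdc25a had the largest ratio of the early G1 list, at 23.7 and 19.6 (0.27). Dut, which clears dUTP, and Cks1b, a CDK subunit, were at 424 and 485 CPM (-0.20) and 444 and 517 (-0.22). The mitosis list's largest ratios were those of Ccnf (0.44), Cdca8 (-0.33) and Hmgb2 (-0.32), and that of the replication-fork list was Mcm10 (0.42). Of the CDK inhibitors, which hold the kinases off, Cdkn2c (288 and 426 CPM, -0.56) and Cdkn2d (34.9 and 49.0, -0.49) were lower in AptCD4-LNT, Cdkn1a (27.8 and 22.8, 0.29) and Cdkn1b (103 and 96.7, 0.09) were higher, and Cdkn2a, Cdkn2b and Cdkn1c had 1 to 5 UMIs in each library. Without further scaling, the only gene of these lists past 1.5-fold was Btg2, an antiproliferative gene of the quiescence list, at 392 and 206 CPM (0.93, 0.90 to 0.96). With median scaling 1 CDK inhibitor, Cdkn2c, also passed. Btg2 was 1 of 7 genes in its list, beside Txnip (-0.40), Foxo3 (-0.33) and Btg1 (0.00).

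Epithelial-like cells fell into 7 clusters, of which 4 differed more between the libraries on the G2/M list than the class as a whole and 3 less. Neutrophil-attracting and acute-phase genes (Cxcl5, Lcn2, Csf3) led a cluster of 589 AptCD4-LNT and 1397 Untreated cells. There the G2/M list stood at 309 CPM in AptCD4-LNT and 1163 in Untreated, 3.77-fold lower (log2 ratio -1.91, -1.97 to -1.86), and the S-phase list at 386 and 508 (-0.40). In the cluster led by Ifit3 and Ifit1, interferon-induced genes, the direction was opposite, with 2657 and 1593 CPM for the G2/M list (0.74) and 829 and 568 for the S-phase list (0.54), from 42 and 275 cells. The cluster led by Espn and Ndrg1, which also had Adm and Ero1a among its leading genes, was low in both libraries, at 550 and 603 CPM for the G2/M list and 402 and 411 for the S-phase list.

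The other epithelial-like clusters were near or above the class level for the G2/M list. For the S-phase list the Ibsp and Mgp cluster was below the class level of 903 and 906 CPM, and the rest were near or above it. The Krt14 and Krt17 keratin cluster stood highest in AptCD4-LNT, with 2993 and 2866 CPM for the G2/M list and 1299 and 1102 for the S-phase list (0.24). The Cxcl11 and Cxcl9 cluster, led by interferon-gamma-inducible chemokines, was at 2379 and 3081 CPM for the G2/M list (-0.37) and 1059 and 1317 for the S-phase list (-0.32). The Lgals7 and H19 cluster had 1943 and 2602 (-0.42) and 877 and 900, and the Ibsp and Mgp cluster 2390 and 2416 (-0.02) and 732 and 820 (-0.16). The Lgals7 cluster was 35.5% of AptCD4-LNT and 6.78% of Untreated epithelial-like cells, and the Ibsp cluster 9.58% and 29.4%. With the clusters of both libraries weighted as in Untreated, an alternative chosen after seeing the data, the ratio was -0.27 for the G2/M list and -0.18 for the S-phase list. Weighted as in AptCD4-LNT they were -0.27 and -0.033.

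**Figure D5:**
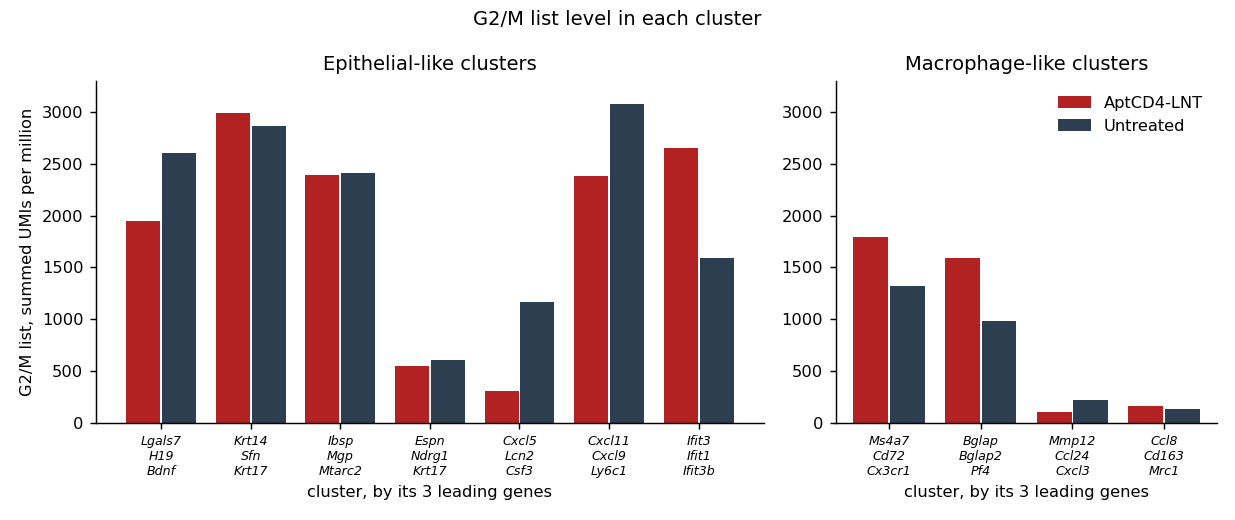
Summed G2/M level in CPM in each epithelial-like (left) and macrophage-like (right) cluster, named by its 3 leading genes, with 1 bar per library from 0. The Cxcl5, Lcn2 and Csf3 cluster is at 309 CPM in AptCD4-LNT and 1163 in Untreated, and the Ms4a7 and Bglap macrophage-like clusters are far above the Mmp12 and Ccl8 clusters in both libraries.

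In macrophage-like cells both lists stood higher in AptCD4-LNT, and the G2/M list more so. The G2/M list stood at 1453 CPM (1421 to 1485) in AptCD4-LNT and 753 (737 to 768) in Untreated, a log2 ratio of 0.95 (0.91 to 0.99), and the S-phase list at 635 and 454 CPM (0.48, 0.42 to 0.55). All 22 G2/M genes and 11 of 18 S-phase genes were at least 1.5-fold higher in AptCD4-LNT, where 20.5% of the 12476 genes tested were, and none was 1.5-fold lower, where 8.51% were. The medians were 0.97 and 0.68, beside 0.21 over all genes, and with counts scaled to the median gene of at least 100 UMIs, 15 G2/M and 6 S-phase genes passed.

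The largest macrophage-like ratios were in mitotic genes. Kif11, the motor that separates the spindle poles, stood at 36.4 and 13.4 CPM (1.45, 1.14 to 1.75), Plk1 at 20.6 and 7.88 (1.38), Mki67 at 126 and 49.4 (1.35), Nusap1 at 46.9 and 18.8 (1.32), Kif23 at 30.1 and 12.6 (1.26) and Cenpf at 59.0 and 26.6 (1.15). Cenpa (200 and 121 CPM, 0.72), Top2a (174 and 83.2, 1.06) and Ube2c (151 and 89.0, 0.77) had most UMIs, and Aurka (19.4 and 12.8, 0.60) the smallest ratio of the list. Of the S-phase genes Rrm1 was at 41.3 and 20.3 CPM (1.02), Mcm5 at 27.5 and 14.4 (0.93), Ccne2 at 5.60 and 2.94 (0.93), Uhrf1 at 27.3 and 14.7 (0.89), Rrm2 at 31.0 and 17.4 (0.84) and Mcm6 at 25.8 and 14.5 (0.83). Pcna (140 and 90.2 CPM, 0.63) and Mcm3 (53.8 and 33.1, 0.70) were higher too, but Slbp (87.2 and 89.3, -0.03) was not, and Mcm4 (27.8 and 35.2, -0.34) was lower. Among the further lists 25 of 33 mitosis, 11 of 22 replication-fork and 6 of 12 RB and E2F genes were higher by 1.5-fold, against 0 of 8 early G1 genes.

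These cells belong to 4 clusters that the libraries filled differently. The cluster led by Ms4a7, Cd72 and Cx3cr1 (466 AptCD4-LNT and 73 Untreated cells) had 1796 and 1321 CPM of the G2/M list (0.44, 0.31 to 0.58), and the cluster led by Bglap and Pf4 (48 and 1669 cells) 1586 and 976 (0.70, 0.51 to 0.88). The Mmp12 and Ccl24 cluster (43 and 965 cells) had 105 and 217 CPM, from 21 and 686 UMIs, and the Ccl8, Cd163 and Mrc1 cluster of resident-type macrophage genes (376 and 221 cells) had 160 and 132 CPM. With the clusters weighted as in Untreated the G2/M ratio was 0.61, and as in AptCD4-LNT 0.44. After thinning to 1000 UMIs, 12.2% (10.0 to 14.6%) of AptCD4-LNT and 9.25% (8.19 to 10.4%) of Untreated macrophage-like cells carried 2 or more G2/M UMIs, and without thinning 33.2% and 23.7% did. Thinning left out 110 AptCD4-LNT and 181 Untreated macrophage-like cells.

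The macrophage-like ratio changed with which cells counted as macrophage-like. Without doublet removal the G2/M ratio was 0.18 and the S-phase ratio -0.07, and 17.1% of the Untreated and 4.5% of the AptCD4-LNT cells in the class were then called doublets. Those called cells carried 58.2% and 18.2% of its G2/M UMIs and epithelial markers at 3668 and 3698 CPM, beside 5155 and 4977 CPM in epithelial-like cells. With the cell cycle genes kept for clustering the G2/M ratio was -1.36; 623 macrophage-like and 999 monocyte-like cells then shared a cluster left without a name, which had 1371 CPM in AptCD4-LNT and 468 in Untreated. After doublet removal the epithelial markers of macrophage-like cells were at 123 CPM in AptCD4-LNT and 220 in Untreated, and their fibroblast markers at 375 and 102 CPM. The part of either in the result was not tested.

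In fibroblast-like cells both lists were higher in AptCD4-LNT, with 687 and 513 CPM for the G2/M list (0.42, 0.35 to 0.49) and 401 and 346 for the S-phase list (0.21, 0.13 to 0.30). At least 1.5-fold higher were 10 of 22 G2/M and 5 of 18 S-phase genes, where 11% of genes were, and none was lower, where 13.3% were. The medians were 0.57 and 0.32 beside -0.02 over all genes. Ccne2 stood at 7.37 and 2.05 CPM (1.85, 0.85 to 3.03, from 81 and 9 UMIs), Plk1 at 10.6 and 5.00 (1.09), Kif11 at 15.7 and 8.18 (0.94), Uhrf1 at 17.8 and 9.55 (0.90) and Cenpf at 35.2 and 19.3 (0.87), whereas Cenpa (60.8 and 76.4, -0.33) and Slbp (59.5 and 76.1, -0.36) were lower. Both fibroblast-like clusters went the same way, the Ptx3 and Sfrp2 cluster with 591 and 349 CPM of the G2/M list and the Tagln and Grem1 cluster with 927 and 652. Epithelial markers were at 147 CPM in AptCD4-LNT and 571 in Untreated fibroblast-like cells, and their part in the result was not tested. Without doublet removal the G2/M ratio was -0.31 and the S-phase ratio -0.06, and without the 10 cells with most G2/M UMIs the G2/M ratio was 0.82.

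In monocyte-like cells most G2/M UMIs of AptCD4-LNT lay in 10 cells. The list stood at 500 and 238 CPM (1.07, 0.90 to 1.24), with 17 of the 20 measured genes at least 1.5-fold higher in AptCD4-LNT, where 18.1% of genes were higher and 7.06% lower, and the S-phase list at 421 and 367 CPM (0.20) with 5 of 14 higher and 1 lower. Cenpf, at 34.1 and 5.32 CPM (58 and 10 UMIs), and Kif11, at 11.8 and 2.13 (20 and 4 UMIs), had the largest ratios, 2.68 and 2.47. However, 73.9% of the 851 G2/M UMIs of AptCD4-LNT lay in 10 cells, against 37.3% of 448 in Untreated, and without those 10 cells of each library the list stood at 139 and 155 CPM. The thinned share of cells with 2 or more G2/M UMIs was 1.60% and 2.18%, near that of neutrophil-like cells, so no order is read from it. Mcm4 was the S-phase gene that was lower, at 14.7 and 35.7 CPM (-1.28).

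The AptCD4-LNT library holds only 64 T-like cells. Their S-phase ratio was -0.08 (-0.24 to 0.08) and their G2/M ratio -0.27 (-0.40 to -0.15), and of all genes tested 16.4% were higher and 12.1% lower by 1.5-fold. Of the S-phase genes 1 was higher and 5 lower, and of the 21 measured G2/M genes none was higher and 5 were lower. Ube2c was at 154 and 293 CPM (-0.93, -1.43 to -0.46), Birc5 at 176 and 262 (-0.58), Cenpa at 274 and 381 (-0.47) and Slbp at 201 and 331 (-0.72), while Top2a (461 and 391, 0.24) and Mki67 (212 and 217, -0.03) had intervals across 0. Pcna was at 264 and 194 CPM (0.44, 0.03 to 0.83). Ccne1 stood at 7.32 and 32.7 CPM on 2 and 36 UMIs (-2.16, -5.26 to -0.20). In AptCD4-LNT 10 cells held 87.3% of the 622 G2/M UMIs, in Untreated 26.7% of 3030. Without those 10 cells of each library the G2/M ratio was -2.12, and without the 10 with most S-phase UMIs the S-phase ratio was -1.27. Taking out 10 cells removes a larger part of the 64 AptCD4-LNT than of the 466 Untreated cells, which by itself lowers these ratios. After thinning, 19.4% (10.4 to 31.4%) and 31.8% (26.8 to 37.2%) of T-like cells carried 2 or more G2/M UMIs and 24.2% (14.2 to 36.7%) and 34.3% (29.1 to 39.7%) 2 or more S-phase UMIs, intervals that overlap. Thinning left out 2 AptCD4-LNT and 139 Untreated T-like cells, so these shares cover unequal parts of the 2 libraries. Unthinned, the shares were 39.1% and 35.0% for the G2/M list and 39.1% and 41.0% for the S-phase list.

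Within the T-like cells the level differed between sub-clusters. In the Untreated library the sub-cluster led by Tnfrsf4, Maf, Cd4 and Foxp3, genes of regulatory T cells, had 405 CPM of the G2/M list in 49 cells, and that led by Ccl5 and Ly6c2 had 917 in 166 cells. The granzyme sub-cluster (Gzmg, Gzmf, Gzmd) had 2565 in 65 cells, the Hspa1a and Pclaf sub-cluster 3384 in 132 cells, and the Il2 and Tnfsf8 sub-cluster 4876 in 48 cells. Pclaf and the histone genes H1f5 and H2ac24, among the leading genes of the Hspa1a and Pclaf sub-cluster, were not left out of clustering. Its high level may thus partly follow from how it was formed, which was not tested. The AptCD4-LNT cells numbered 22, 21, 9, 3 and 2 in these sub-clusters, with 533, 3275, 2171, 2950 and 6819 CPM in that order. The Ccl5 and Ly6c2 sub-cluster went against the class, with 247 G2/M UMIs in AptCD4-LNT and 168 in Untreated (log2 ratio 1.84, 1.55 to 2.13).

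The remaining classes have few cells, and their G2/M UMIs lay almost wholly in some of them. In endothelial-like cells the G2/M list was at 1452 and 2015 CPM (-0.47, -0.59 to -0.36), with 5 of 22 genes 1.5-fold lower and none higher (11.4% and 9.97% of all genes), led by Ube2c (173 and 347 CPM, -1.01), Prc1 (68.4 and 131, -0.94) and Cdc20 (45.1 and 82.4, -0.87). With cells weighted equally the ratio was -0.057, with 2 genes lower and 1 higher. Fibroblast markers in endothelial-like cells were at 2548 and 96.5 CPM, and their part in the result was not tested. Of the 14 measured S-phase genes 2 were higher and 1 lower, and Rrm2 was at 42.0 and 70.4 CPM (-0.75). In pericyte-like cells 6 of 21 G2/M and 4 of 12 S-phase genes were higher and none lower (18.6% and 14.2% of all genes), led by Hmmr (69.8 and 30.3 CPM, 1.20) and Birc5 (174 and 80.9, 1.11), beside epithelial markers at 563 and 1717 CPM. In dendritic-like cells 11 of 12 G2/M genes were higher (17.8% of all genes) and none lower (14.2%), with Ube2c at 45 UMIs and 0 and Cenpf at 25 UMIs and 1 (58.2 and 5.46 CPM, log2 ratio 3.41, 0.80 to 8.77), while of 5 measured S-phase genes 2 were higher and 3 lower. Epithelial markers of dendritic-like cells were at 235 and 764 CPM, and their part in the result was not tested. In AptCD4-LNT 10 cells held 94.8%, 96.4% and 87.0% of the G2/M UMIs of these 3 classes, and in Untreated 74.9%, 91.2% and 67.1%. Without those cells the G2/M ratios were -2.53, -0.70 and 0.16. The 10 cells were a larger part of the 55 endothelial-like and 51 pericyte-like cells of AptCD4-LNT than of the 153 and 96 of Untreated. That by itself lowers the ratios of these classes.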

How the data were processed

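Each library was a 10x single-cell gene expression library, and the deposited files hold UMI counts per gene and cell, made with Cell Ranger 7.2.0 on GRCm39 per the submitters' processing notes. From these counts, barcodes with under 200 genes or over 20% mitochondrial UMIs were dropped (78 and 39), and Scrublet doublets were removed (226 and 1785), leaving 8627 AptCD4-LNT and 18216 Untreated cells. With scanpy 1.11.5, 2000 variable genes without the listed cell cycle genes, 30 components and 15 neighbours gave 25 Leiden clusters at resolution 1. Clusters were named from marker lists; the naming rule was settled after the clusters were seen, and unnamed clusters were not compared. A gene counts as higher or lower past 1.5-fold with at least 20 UMIs over both libraries. In small classes a gene can reach this minimum through the library where it is high. Intervals are exact Poisson, binomial or Clopper-Pearson at 95%, except that the interval of the difference in balance is a normal approximation. On Poisson counts simulated for the epithelial-like comparison, 94.7% covered the ratio set. Such counts hold no spread between cells or mice, so coverage near 95% was built in and does not check the intervals on the real counts. With 1 library a group no p-value was computed. Every gene of both lists is named in epithelial-like cells. Elsewhere up to 3 genes per list with most UMIs and up to 6 with the largest ratio whose interval excludes 0 are named. Single contrasting genes were added after their values were seen. Of the other lists, up to 3 by level and 3 by ratio were eligible, and Gins1 was added after its value was seen. The members and lists were chosen with earlier results of these data known.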

Additional observations from a re-analysis of the deposited data

Results flagged for a closer look

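The G2/M list was lower in AptCD4-LNT epithelial-like cells (log2 ratio -0.17) and higher in AptCD4-LNT in 5 other classes, and the difference between classes was not tested. The ratio was 0.95 in macrophage-like, 1.07 in monocyte-like, 0.42 in fibroblast-like, 0.41 in pericyte-like and 1.58 in dendritic-like cells. Without the 10 cells with most G2/M UMIs of each library it was 0.86, -0.15, 0.82, -0.70 and 0.16 in that order. These 10 cells are a larger part of the library with fewer cells of the class. Within the epithelial-like class, the Krt14 cluster (0.063) and the Ifit3 cluster (0.74) went against the class. Within the macrophage-like class, the Mmp12 cluster (-1.04) went against it. So did the Ngp and Camp cluster of neutrophil-like cells (1.38, from 31 and 169 cells), the Ccl5 and Ly6c2 sub-cluster of T-like cells (1.84, from 21 and 166 cells) and their Il2 sub-cluster (0.48, from 2 and 48 cells). These differences between clusters were not tested either. In classes with too few cells to compare, the G2/M list of AptCD4-LNT stood at 1821 CPM in NK-like cells (292 UMIs), 2318 CPM in osteoclast-like cells and 2256 CPM in skeletal muscle-like cells, beside 368 (7 UMIs), 1056 and 1769 CPM in Untreated.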

How the results depend on the processing

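Only 1 library a group was sequenced, so no library could be left out, and no paired analysis was possible because the groups share 1 replicate number. Alternatives by cluster makeup and without the 10 cells with most UMIs of a list were chosen after seeing the data. Taking out 10 cells removes a larger part of the library with fewer cells of a class, so those ratios compare unequal parts. In epithelial-like cells the S-phase log2 ratio was -0.057 with median scaling, -0.038 without doublet removal, 0.023 at the expected doublet rate, -0.080 for cells of at least 1000 UMIs, -0.072 with cell cycle genes kept and -0.18 at the cluster makeup of Untreated, or -0.033 at that of AptCD4-LNT. The G2/M ratio was -0.22, -0.21, -0.25, -0.27 and -0.27 under the same settings other than the expected rate, -0.15 with cells weighted equally -0.19 without the 10 cells and -0.27 at the makeup of AptCD4-LNT. The balance was 0.14 with cells equal, 0.19 at the expected rate and 0.20 with cell cycle genes kept. In macrophage-like cells the S-phase ratio was 0.27 with median scaling, 0.36 with cells equal, -0.070 without doublet removal, 0.36 at the expected rate, 0.36 at 1000 UMIs, -0.20 with cell cycle genes kept, 0.30 at the makeup of Untreated and 0.35 without the 10 cells. The G2/M ratio was 0.74, 0.62, 0.18, 0.81, 0.78, -1.36, 0.61 and 0.86 in that order, 0.89 at resolution 2 and 0.44 at the makeup of AptCD4-LNT, where the S-phase ratio was 0.43. Without the 10 cells the T-like ratios were -1.27 and -2.12, the endothelial-like G2/M ratio -2.53, the fibroblast-like 0.82 and the dendritic-like 0.16, and with cells equal the endothelial-like G2/M ratio was -0.057. Reversals elsewhere were monocyte-like S-phase -0.10 and G2/M -0.43 at the expected rate and G2/M -0.15 without the 10 cells; neutrophil-like G2/M 0.11 at 1000 UMIs and 0.037 at resolution 2; fibroblast-like S-phase -0.064 and G2/M -0.31 and dendritic-like G2/M -0.085 without doublet removal; endothelial-like S-phase 0.22 with cells equal and 0.051 at the expected rate; pericyte-like S-phase -0.33 and G2/M -0.70 without the 10 cells. The ratio of macrophage-like cell shares was 0.86 for the S-phase and 0.80 for the G2/M list without doublet removal. The cause was not tested. Monocyte-like cells were not formed without doublet removal, at 1000 UMIs or with cell cycle genes kept, pericyte-like cells at the expected rate, nor dendritic-like cells at 10% mitochondrial UMIs.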
